A study of Mus musculus with 9 samples.

Results

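Of 66066 PPARγ peaks of brown fat, 1376 had a high read count that changed little between the 8 times of day at which tissue was taken. These strong stable peaks were chosen by their measured values. Each had a mean read count of at least 1000 over the 8 libraries, and its highest normalized count was at most 1.2 times its lowest. For this purpose the counts of a library were divided by its size factor, the median over all peaks of the count relative to the geometric mean of that peak. The mean read count reached 1000 in 7719 peaks, here called strong, and 1376 of these (17.8%) met the limit of 1.2. Strong refers only to the read count, which grows with the width of a peak. Of all 66066 peaks, 3771 (5.71%) met that limit irrespective of strength. For comparison, the 1609 strong peaks with a highest over lowest ratio of at least 1.5 are called variable, and the 4734 in between intermediate.

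Interscapular brown adipose tissue (iBAT) came from male C57BL/6J mice aged 10 weeks, which were fed chow and kept at 22 °C with 12 h of light per day. Tissue was taken every 3 h from ZT0 (lights on) to ZT21, with no treatment or genetic change, pooled at each time point and used for chromatin immunoprecipitation with a PPARγ antibody and sequencing (ChIP-seq). The ChIP protocol states pools of 8 mice, but the description of the animals states 4 for each time point. Each time point has 1 library, so the spread between mice or preparations could not be estimated, and the values of the stable peaks are given as descriptions. Rhythm tests fitted over all peaks are printed for them without support being drawn from them. The libraries held 29572225 to 34264812 reads in peaks, with size factors from 0.964 to 1.05. The ZT12 input library was not used.

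PPARγ, a nuclear receptor, is activated by fatty acids and their derivatives and is required for adipocytes to form and to keep their identity. It binds DNA together with the retinoid X receptor, preferentially at a direct repeat of AGGTCA with 1 base between the copies (DR1). In brown adipocytes it sits near genes of lipid uptake, lipid storage and heat production, often beside C/EBP and EBF factors. A ChIP-seq peak can also lie at an active start site, where open chromatin and the transcription machinery are found.

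As a check of the tissue, PPARγ peaks centred within 1 kb of a start site were present at 4 of 8 brown adipocyte markers (Elovl3, Cox8b, Dio2 and Ebf2) and at 3 of 6 general adipocyte markers (Adipoq, Plin1 and Pparg), with mean normalized counts of up to 4686 and 7365. The medians over these lists, with genes without such a peak at 0, were 222 and 2683. Of the white adipocyte markers, Nnat alone of 3 had such a peak, with 126. Ucp1, Cidea, Prdm16, Zic1, Lpl, Fabp4 and Cidec had no peak that close. Of the macrophage markers 0 of 5 had such a peak. Endothelial markers had one at 2 of 4 genes (up to 140), skeletal muscle markers at 2 of 5 (up to 889), and fibroblast and preadipocyte markers at Pdgfra alone of 3 (1304). Peaks show binding and not RNA, and the part of other cell types in the stable peaks was not tested.

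Few stable peaks held a DR1 in their central 300 bases. The centre is the midpoint of the called interval and not the summit, so in a wide peak the bound site can lie outside these bases. In the central 300 bases of the peaks (RefSeq sequence of GRCm38, the build of the peak coordinates), 3 stable peaks had a DR1 without a mismatch and 4 had a DR1 with 1 mismatch among the 12 fixed bases. A DR1 without a mismatch was found in 0.218% of stable and 0.253% of all peaks, and one with at most 1 mismatch in 0.509% and 2.06%. These 7 sites are shown with that of the strongest stable peak, at Nfil3, which had 2 mismatches. Capitals mark the bases that match AGGTCA in either copy, and small letters the spacer base and the mismatches. Each is written along its own strand and named by the gene with the nearest start site.
Isca1 (chr13:59769911-59769923, reverse strand): AGGTCAcAGGTCA
Bach1 (chr16:87671112-87671124, reverse strand): AGGTCAgAGGTCA
H2-Ke6 (chr17:34027880-34027892, forward strand): AGGTCAgAGGTCA
Atpaf2 (chr11:60415343-60415355, reverse strand): AGGTCAgAGGaCA
Trak1 (chr9:121356895-121356907, reverse strand): AGGTCAggGGTCA
0610009L18Rik (chr11:120349518-120349530, forward strand): AGGTCAcAGGgCA
Adra1d (chr2:131541970-131541982, reverse strand): AGaTCAtAGGTCA
Nfil3 (chr13:52977265-52977277, forward strand): AGGTCAagaGTCA

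The peak at Isca1, which encodes an iron-sulfur cluster assembly protein, was centred 36 bases upstream of the start site and had a mean normalized count of 2190 and a ratio of 1.13. The peak at Bach1, a repressor regulated by heme, lay 27924 bases upstream, with a mean of 1357 and a ratio of 1.17. That at H2-Ke6 was centred in exon 2, with a mean of 1014. Of the 4 with 1 mismatch, the strongest was in intron 1 of Atpaf2, an assembly factor of ATP synthase, with a mean of 4154. With up to 2 mismatches, a DR1 was found in 5.89% of stable, 7.10% of intermediate and 9.03% of variable strong peaks, and in 9.69% of all peaks. When the whole peak was searched, the shares were 41.9%, 48.3%, 50.7% and 23.6%. The median width was 2692 bases for strong peaks and 813 for all peaks.

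The central 300 bases are shown for Nfil3 and Nat8l, picked as the 2 of the 10 strongest that hold a DR1 with at most 2 mismatches there, and for the 2 least varying stable peaks (Cd59a and Wdr82). The other 8 of the strongest had 3 to 5 mismatches, so these windows are not typical. All 4 windows are intronic. Capitals mark the DR1 with 2 mismatches in the windows of Nfil3 and Nat8l, and GGGCGG, the motif of the Sp and KLF factors, on either strand in that of Wdr82. The window of Cd59a held neither.
Nfil3 (chr13:52977144-52977443, forward strand): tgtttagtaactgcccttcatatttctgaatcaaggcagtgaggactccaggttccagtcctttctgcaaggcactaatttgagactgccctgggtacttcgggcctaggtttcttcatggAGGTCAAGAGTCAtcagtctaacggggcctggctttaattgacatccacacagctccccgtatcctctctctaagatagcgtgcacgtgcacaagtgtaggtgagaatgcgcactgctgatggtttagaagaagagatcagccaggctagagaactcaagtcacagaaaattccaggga
Nat8l (chr5:33999699-33999998, forward strand): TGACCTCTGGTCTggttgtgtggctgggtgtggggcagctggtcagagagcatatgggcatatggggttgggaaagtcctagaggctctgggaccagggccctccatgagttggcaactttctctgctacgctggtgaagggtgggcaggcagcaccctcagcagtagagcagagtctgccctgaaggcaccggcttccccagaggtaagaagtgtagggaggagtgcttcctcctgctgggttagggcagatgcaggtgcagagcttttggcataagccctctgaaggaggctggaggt
Cd59a (chr2:104096092-104096391, forward strand): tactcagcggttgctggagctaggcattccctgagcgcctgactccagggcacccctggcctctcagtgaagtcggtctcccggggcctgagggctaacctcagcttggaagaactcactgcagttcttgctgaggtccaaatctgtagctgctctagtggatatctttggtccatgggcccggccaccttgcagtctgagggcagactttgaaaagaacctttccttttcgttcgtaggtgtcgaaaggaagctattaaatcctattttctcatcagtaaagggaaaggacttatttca
Wdr82 (chr9:106171762-106172061, forward strand): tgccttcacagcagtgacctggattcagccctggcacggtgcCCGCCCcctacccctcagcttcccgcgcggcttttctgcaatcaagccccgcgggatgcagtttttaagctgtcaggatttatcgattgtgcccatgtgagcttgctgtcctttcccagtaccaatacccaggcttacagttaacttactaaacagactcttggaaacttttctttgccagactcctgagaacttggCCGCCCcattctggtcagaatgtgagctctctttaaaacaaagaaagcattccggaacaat

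The strongest stable peaks were broad. The mean normalized count of the 10 strongest ranged from 5808 to 7774. The first of these, chr13:52971386-52983202, covered 11817 bases centred in intron 1 of Nfil3, which encodes a repressor of clock-controlled genes. In the light phase its normalized counts were 7560 (ZT0), 7647 (ZT3), 8329 (ZT6) and 7357 (ZT9), and in the dark phase 8456 (ZT12), 7930 (ZT15), 7316 (ZT18) and 7600 (ZT21). It was thus highest at ZT12 and lowest at ZT18, with a ratio of 1.16. Its variance over the libraries was 23.4 times its mean, where counting alone would give about 1.

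Next came a peak at chr4:139959944-139968766, centred in exon 1 of Klhdc7a although the nearest start site is that of Mir2139. Its normalized counts ran from 6810 at ZT18 to 7853 at ZT3. The peak at Tnrc18 ranged from 6317 at ZT6 to 7397 at ZT3. The peak of 11129 bases in intron 1 of Adora1, the adenosine receptor that restrains lipolysis in fat cells, had 6387 at ZT0 as its lowest and 7064 at ZT3 as its highest value, a ratio of 1.11. Nat8l encodes the enzyme that makes N-acetylaspartate, and its peak ranged from 5824 at ZT18 to 6549 at ZT12. Others were assigned to Zeb2, Prdm11, Tle3 and Mif4gd. Tle3, a corepressor that acts with PPARγ in adipocytes, had 5514 at ZT18 and 6278 at ZT12, a ratio of 1.14. Of the 10, 6 were lowest at ZT18, 5 were highest at ZT3 and 3 at ZT12.

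**Figure D1:**
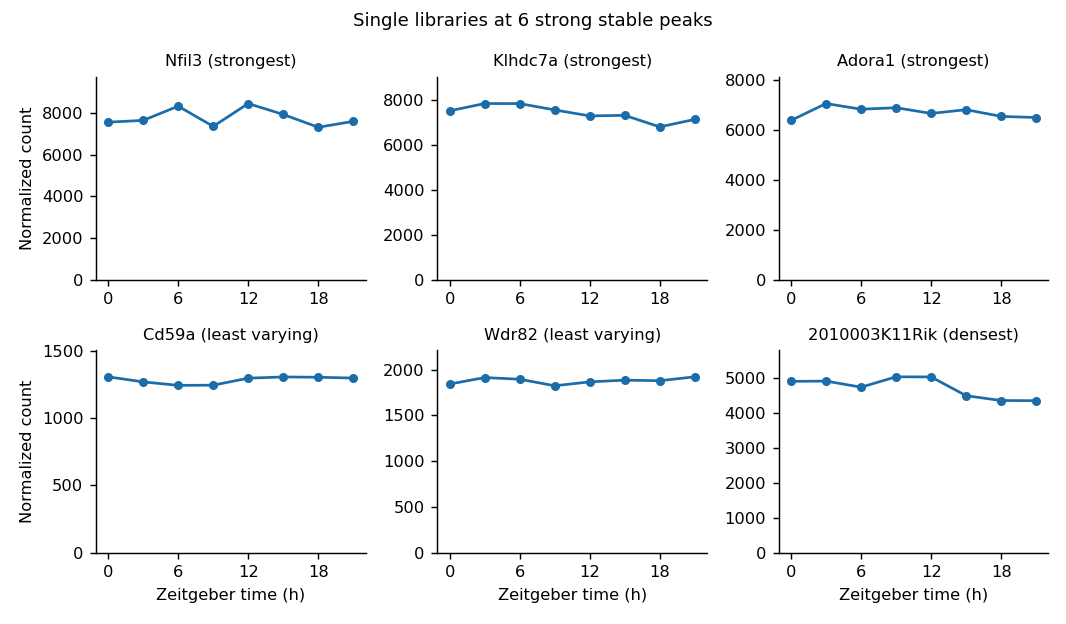
Normalized count (vertical axis, from 0) against Zeitgeber time in hours for 6 strong stable peaks, with 1 point per library and no error bars, since each time point has 1 library. Nfil3, Klhdc7a and Adora1 are among the strongest, Cd59a and Wdr82 vary least, and 2010003K11Rik is the densest. The points of Nfil3 lie between 7316 and 8456, and those of Cd59a between 1243 and 1306.

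The least varying peaks were weaker, and 7 of the 10 were centred within 1 kb of a start site. The lowest ratio, 1.05, was at chr2:104095395-104097090 in intron 1 of Cd59a, which encodes an inhibitor of complement. Its normalized counts in the light phase were 1306 (ZT0), 1269 (ZT3), 1243 (ZT6) and 1244 (ZT9), and those in the dark phase 1296 (ZT12), 1305 (ZT15), 1303 (ZT18) and 1297 (ZT21). The exact 95% Poisson intervals, which cover counting error only, ran from 1236 to 1380 for the highest value and from 1176 to 1313 for the lowest. This peak was also among those called by JTK-cycle, a rank-based test for rhythms, with a P value of 0.026. The peak of Wdr82, a subunit of a histone methyltransferase complex, ranged from 1824 at ZT9 to 1921 at ZT21, and that of Cdc42bpb, a protein kinase, from 1320 at ZT18 to 1391 at ZT6. Angpt1, a ligand of the endothelial receptor Tie2, differed from these in place, as its peak lay in intron 7, 221873 bases from the start site, with values between 1106 and 1170. The other 6 peaks among the 10 least varying, at Fam160b1, Dusp10, Pigv, Ppm1a, Lman2 and Gm21992, had ratios from 1.06 to 1.07.

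The spread within the stable peaks is described by the same counts that chose them. The coefficient of variation over the 8 libraries had a median of 5.09%, and counting error alone at the median count of 1605 would give 2.50%. The former also holds any differences between the 8 pools and their preparation. The variance was at most the mean in 23 of the 1376 peaks (1.67%), and its median was 4.23 times the mean. The ratio was at most 1.1 in 93 peaks. Just inside the limit of 1.2 were peaks at 2810004N23Rik, Fzd4, AU020206, Gm11266 and Pxdn, and just outside were peaks at Txnrd1, Ncoa1, Ypel2, Hipk2 and Ric1, all with a ratio that rounds to 1.20. At the count limit, peaks at Gm46545 and Cox4i1 were included with mean read counts of 1001, and peaks at Pafah2 and Rbm5 were not, with 999.6 and 997.9.

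**Figure D2:**
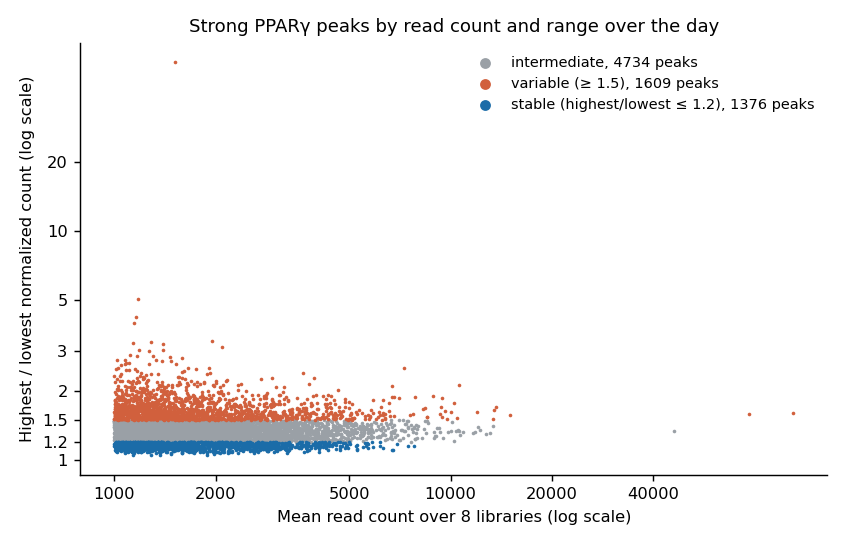
Highest over lowest normalized count (log scale) against the mean read count over the 8 libraries (log scale), with 1 point for each of the 7719 strong peaks. The 1376 stable peaks form the band below 1.2, and their mean read counts end at 7792, while intermediate and variable peaks reach higher counts. The variable peaks include those on mitochondrial DNA, with mean read counts of up to 104442.

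The stable share was lower among the densest and the very strongest peaks. Of the strong peaks on the chromosomes, 260 had a mean read count of 5000 or more, and 21 of these (8.08%) were stable. The share was 17.4% to 19.8% in the 4 lower count ranges. Peaks on mitochondrial DNA, all variable, had mean read counts of 5221, 77052 and 104442 and are left out of the shares in this paragraph. By density, 21 of 425 peaks (4.94%) with at least 1200 normalized counts per kb of peak were stable, compared with 22.6% of peaks with 400 to 600 per kb. Stable peaks had a median density of 602 per kb and a median width of 2848.5 bases, intermediate ones 646 per kb and 2724 bases, and variable ones 700 per kb and 2489 bases. The densest stable peaks were those at 2010003K11Rik with 1730 per kb, Qtrt2 with 1644, Habp2 with 1614, Mmd with 1430 and Plpp3 with 1388 per kb. These densities stem from the same counts that chose the peaks and serve as a description.

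Stable peaks were found at start sites more often than other strong peaks. The centre lay within 1 kb of a curated RefSeq start site in 657 of the 1376 (47.7%), in 24.96% of intermediate and in 11.2% of variable peaks, compared with 15.7% of all peaks. The median distance was 1121 bases for stable, 10390 for intermediate and 19428 for variable peaks. A start site lay inside the peak in 57.4%, 32.5% and 15.7%. Read the other way, 32.6% of the 2018 strong peaks within 1 kb of a start site were stable and 8.92% variable. Among the 1400 strong peaks more than 50 kb away, 10.0% were stable and 28.1% variable.

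This difference was present in every range of mean read count examined. Within 1 kb of a start site, 33.5% of the strong peaks with mean read counts from 1000 to 1500 were stable, and 28.3% of those with 3000 or more. Beyond 1 kb, the shares were 10.96% and 12.3%. Peaks are not replicates of a time point, and neighbouring peaks share libraries and genes, so these shares are given as a description without a test.

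**Figure D3:**
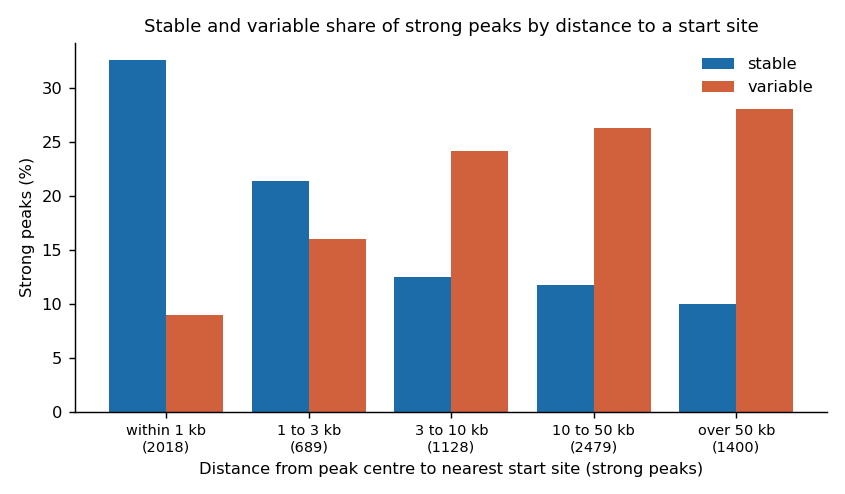
Percentage of strong peaks that were stable (blue) or variable (orange) by the distance from the peak centre to the nearest start site, with the number of strong peaks under each pair of bars. The stable share falls from 32.6% within 1 kb to 10.0% beyond 50 kb, and the variable share rises from 8.92% to 28.1%.

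The sequence under the peaks differed accordingly. The central 300 bases had a median GC content of 52.3% in stable, 50.0% in intermediate and 49.3% in variable peaks. They were CpG-rich (observed over expected CpG above 0.6 and GC content above 50%) in 31.7%, 14.7% and 4.67%. GGGCGG was present in 27.8% of stable, 17.8% of intermediate and 9.71% of variable peaks, beside 13.7% of all peaks. Near start sites, a CpG-rich centre went with a higher stable share, 37.4% of 1089 strong peaks, than a centre that was not CpG-rich, 26.9% of 929.

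When peaks near and far from start sites were taken apart, the differences in GGGCGG between stable and intermediate peaks were smaller. Within 1 kb, GGGCGG was found in 48.3% of stable, 47.1% of intermediate and 32.8% of variable peaks. CCGGAAG, an ETS motif, was found in 6.55%, 7.54% and 6.11%. A DR1 with up to 2 mismatches was found in 3.65%, 4.32% and 6.11% within 1 kb and in 7.93%, 8.03% and 9.40% beyond it. The C/EBP motif TTGCNNAA was present beyond 1 kb in 17.2%, 16.2% and 18.2%. The palindromic EBF motif was present there in 1.252%, 1.633% and 2.45%. All motifs were searched on both strands of the central 300 bases, overlapping matches to different motifs were each counted, and a match does not show that a factor is bound. Across all strong peaks, the E-box CACGTG, the site of CLOCK and BMAL1, was present in 6.25% of stable, 5.16% of intermediate and 5.54% of variable peaks.

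Over the day, the stable peaks moved within a few percent. Their summed normalized count ranged from 98.1% of its mean at ZT18 to 101.9% at ZT12. The median peak was at 101.7% of its own mean at ZT3, 101.1% at ZT6, 101.9% at ZT12 and 97.8% at ZT15. In variable peaks, the corresponding median was 120.3% at ZT6 and 83.3% at ZT15, and in all peaks it stayed between 99.2% and 99.4%, as the size factors fix it. The limits on the ratio set how far the medians of these classes can differ. Of the stable peaks, 21.4% were highest at ZT12, 18.6% at ZT6 and 17.3% at ZT3, whereas 49.8% of variable peaks were highest at ZT6. The lowest value fell at ZT15 in 324 stable peaks (23.5%), beside 31.7% of intermediate, 41.1% of variable and 32.2% of all strong peaks.

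Stable peaks near and far from start sites differed in their small movements. Of the 657 within 1 kb, 27.5% were highest at ZT12 and 13.5% at ZT6, and 30.7% were lowest at ZT15. Of the 719 farther away, 15.9% were highest at ZT12 and 23.2% at ZT6, and 16.97% were lowest at ZT15. Of variable peaks within 1 kb, 8.33% were highest at ZT12 and 46.7% at ZT6, and 46.7% were lowest at ZT15. Beyond 1 kb, these shares of variable peaks were 13.3%, 50.2% and 40.4%. The median of stable peaks near start sites was 103.1% at ZT12 and 96.7% at ZT15, and far from them 101.0% and 98.7%. As each time point is 1 library, such a shared shift of a few percent cannot be told apart from a property of that library.

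**Figure D4:**
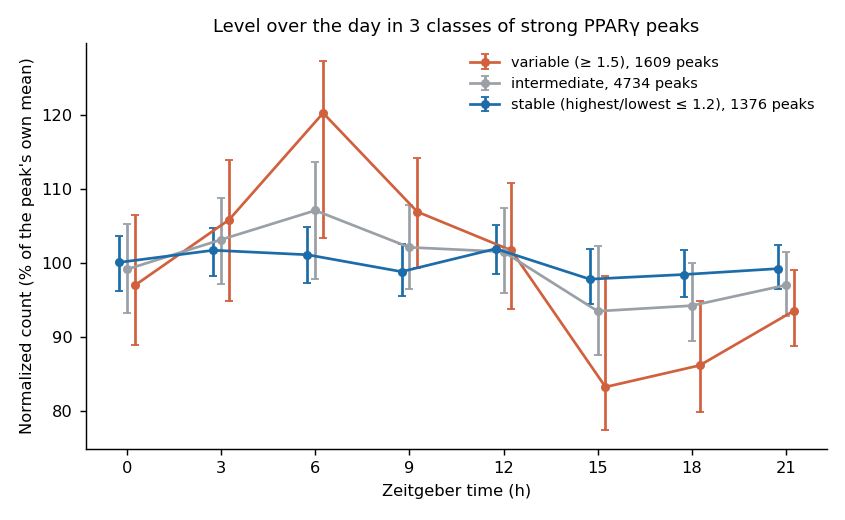
Normalized count as a percentage of each peak's own mean against Zeitgeber time in hours, as the median (points) and quartiles (bars) over the peaks of 3 classes. Stable peaks have medians between 97.8% and 101.9%, and variable peaks between 83.3% and 120.3%.

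JTK-cycle called 67 of the 1376 stable peaks (4.87%) at an exact P value under 0.05 after correction for the periods and phases tried, beside 11.6% of all peaks. The 24-h cosine fit of edgeR (quasi-likelihood) had a Benjamini-Hochberg adjusted P value under 0.05 in 0 stable peaks, beside 13.4% of all peaks. Without adjustment, 36 stable peaks (2.62%) passed 0.05, beside 31.3% of all peaks. DESeq2's likelihood ratio test also gave 0 at an adjusted P value under 0.05, beside 9933 of all 66066 peaks. Since the rule limits how far a peak can move, nothing follows from these counts, or from the amplitudes and P values of single peaks, about the peaks. The 67 called by JTK-cycle had a median cosine amplitude of 6.55% of the mean, which the limit of 1.2 caps. Their fitted cosine was highest from 3 to 9 h in 35, from 9 to 15 h in 11, from 15 to 21 h in 11 and otherwise in 10. The fitted phases of other called peaks are not given here, but 35.1% of all strong peaks had their highest count at ZT6. The fitted phase and the highest count are unlike measures. Whether a midday phase is particular to these 67 peaks was not tested. Among the 67 is the peak in intron 6 of Ebf1, 44760 bases from the start site. It ranged from 4138 at ZT18 to 4925 at ZT6, with a JTK P value of 0.00595. This is the lowest value among stable peaks, 21 of which were under 0.01. The peak of Pdk2, a kinase that inactivates pyruvate dehydrogenase, had the same P value, with 4257 at ZT18 and 5084 at ZT6.

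The share of stable peaks whose gene had another peak called by JTK-cycle was close to that of all peaks. In 48.2% of stable peaks, the same gene had another peak with a JTK P value under 0.05, compared with 54.3% of intermediate and 65.8% of variable peaks and 48.8% of all peaks. This share depends on the number of peaks per gene, so it is not a rate of calls per peak. The median number was 6 for stable, 8 for intermediate, 9 for variable and 7 for all peaks. A neighbouring peak lay within 5 kb of 1025 stable peaks, and 114 of these neighbours (11.1%) were called by JTK-cycle, close to the 11.6% of all peaks. For variable peaks, 251 of 1285 such neighbours (19.5%) were called. The same gene had another peak of any strength with a ratio of at least 1.5 in 76.6% of stable peaks. That share was 84.0% for intermediate, 91.2% for variable and 81.8% for all peaks. Of the 1236 genes with a stable peak, 158 also had a variable strong peak.

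Nfil3 is an example. Besides the broad stable peak over its intron 1, 5 further strong peaks upstream were assigned to it, 3 of them variable. The closest, 4736 bases upstream, ranged from 937 at ZT3 to 1624 at ZT12. A peak 27792 bases upstream ranged from 1440 at ZT18 to 2174 at ZT9, with an adjusted P value of 0.00441 for the edgeR cosine. The farthest, 139660 bases upstream within Ror2, ranged from 896 at ZT18 to 1430 at ZT6.

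**Figure D5:**
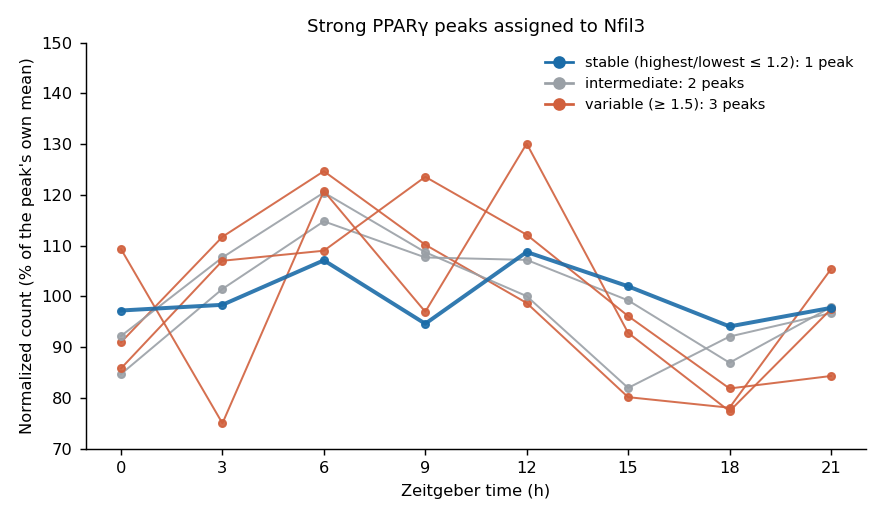
Normalized count as a percentage of each peak's own mean against Zeitgeber time in hours for the 6 strong peaks assigned to Nfil3, with 1 point per library. The stable peak (blue, thick line) has a ratio of 1.16, and the 3 variable peaks (orange) have ratios from 1.51 to 1.73.

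Cry2, a repressor of the core clock, had a stable and a variable peak in the same gene. The stable peak in intron 1, 2083 bases from the start site, ranged from 3131 at ZT6 to 3549 at ZT15, while the other, 10648 bases from the start site, ranged from 3112 at ZT18 to 4943 at ZT6. At Kit, a receptor tyrosine kinase, the stable peak ranged from 5009 to 5609 and was highest at ZT0. The variable peak of Kit ranged from 963 at ZT6 to 2050 at ZT15. At Nrp2, a receptor for semaphorins and VEGF, the stable peak had a mean of 5480 and a ratio of 1.14, and the variable ones had ratios of 1.60 and 1.71, both highest at ZT6 and lowest at ZT15.

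By gene group, stable peaks were few at clock and lipid storage genes. Genes of the core clock and its output had 40 strong peaks, of which 2 (5.00%) were stable, those of Nfil3 and Cry2, and 22 (55.0%) were variable. Genes of lipid uptake, storage and lipolysis had 79 strong peaks, of which 4 (5.06%) were stable and 29 variable, beside 17.8% stable and 20.8% variable among all strong peaks. The 4 were at Cd36, the fatty acid translocase, with 1962 at ZT0 and 2250 at ZT12, at Plin2, a lipid droplet protein, at Dgat2, which makes triglycerides, and at Mgll, which cleaves monoglycerides. The ratios of the last 3 lay between 1.188 and 1.195. The peak assigned to Plin2 lay outside genes, 13790 bases from the start site. Fatty acid oxidation had 2 stable of 38 strong peaks, assigned to Pdk4 (2145 at ZT3 to 2347 at ZT12) and Eci2. Both lay outside genes, 24424 bases from the Pdk4 start site and 71895 bases upstream of Eci2. Adipokines had 1 of 15, assigned to Retn, the gene of resistin, and 8627 bases upstream of it.

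Among brown thermogenic genes 3 of 33 strong peaks (9.09%) were stable. The peak centred 768 bases upstream of Cox8b, which encodes an isoform of a cytochrome c oxidase subunit, ranged from 4382 at ZT15 to 4875 at ZT6, a ratio of 1.11. The other 2 were in intron 1 of Esrrg and intron 6 of Ebf2. Lipogenesis had 6 stable of 37 strong peaks. The strongest, centred 630 bases upstream of Srebf1, a transcription factor of lipid synthesis, ranged from 4508 at ZT3 to 5403 at ZT15. The others were at Acaca (acetyl-CoA carboxylase), Insig1, Me1 and Elovl5, which had 2.

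Subunits of oxidative phosphorylation had the highest share of the 11 lists, with 10 of 31 strong peaks stable (32.3%) and 4 variable. In this list 54.8% of strong peaks lay within 1 kb of a start site, compared with 26.2% of all strong peaks, and whether the higher share goes beyond that was not tested. The 10 were at Cox8b, Cox8a, Atp5o, Sdhb, Uqcrq, Atp5b, Uqcrfs1, Ndufb10, Atp5l and Cox4i1, with means from 999.5 to 4686. The peak assigned to Atp5o lies in exon 20 of Itsn1, 82751 bases from the Atp5o start site. Ribosomal protein genes had 4 of 18 strong peaks stable (Rpl11, Rpl23a, Rpl34 and Rps27a), and that of Rpl34 lay 150313 bases upstream. Of the housekeeping genes, Polr2a and Ywhaz had a stable peak each, 2 of 13.

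The list of PPAR, RXR, C/EBP and coregulator genes, which also holds the EBF factor Ebf1, had 7 stable and 7 variable among 38 strong peaks. The stable ones were at Tle3 (2), Ebf1 (3), Nrip1, a corepressor of nuclear receptors, and Ep300, a histone acetyltransferase. No stable peak was assigned to the PPAR, RXR and C/EBP genes themselves. How many of the 38 strong peaks lay at those genes is not given here, so nothing follows from that absence. The stable share of the whole list was 18.4%, beside 17.8% of all strong peaks. Genes of glucose handling and insulin action had 6 of 31, among them those assigned to Pdk2, Trarg1, Akt2 and Hk2. The peak assigned to Akt2 lay in exon 10 of 2310022A10Rik, 10675 bases upstream of the Akt2 start site. Of these 6 peaks, that of Trarg1, a partner of the glucose transporter GLUT4, had the lowest ratio, 1.10. The lists hold few peaks each, and their shares are descriptions.

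The 1376 peaks were assigned to 1236 genes by the nearest start site, and 151 were centred in a different gene. A single stable peak was assigned to 1121 genes, 2 to 95, 3 to 15 and 4 to 5. The 5 genes with 4 were Trak1, which links mitochondria to kinesin motors, Zmiz1, a transcriptional coregulator, Mmd, Spsb1 and Cdc7, a kinase of DNA replication. At Zmiz1, 4 of its 5 strong peaks were stable and all 4 lay in intron 1, with means of 1032, 2185, 2315 and 4912. At Trak1, 4 of 7 strong peaks were stable, among them the peak with the DR1 of 1 mismatch, which ranged from 2996 at ZT0 to 3482 at ZT9. The 4 stable peaks assigned to Cdc7 had ratios from 1.09 to 1.17 and 3 of them lay outside the gene, up to 123351 bases from the start site. By chromosome, the stable share of strong peaks was highest on chromosome 11, with 146 of 632 (23.1%), and lowest among the autosomes on chromosome 16, with 30 of 269 (11.2%).

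Which peaks count as stable depended on how the libraries were scaled. With TMM factors (trimmed mean of M-values, from edgeR) 1343 of the 1376 (97.6%) stayed within 1.2, with library totals alone 1066 (77.5%), and with cyclic loess, which removes trends with peak strength, 846 (61.5%). Of the 10 strongest, 9 stayed within 1.2 with TMM (Prdm11 at 1.204) and 9 with library totals (Tnrc18 at 1.23). Only 3 stayed within 1.2 after cyclic loess, those at Prdm11, Tle3 and Mif4gd, and the ratio became 1.29 for Nfil3, 1.29 for Adora1 and 1.48 for Tnrc18. Of the 10 least varying, 9 stayed, with Ppm1a at 1.21. The peaks of Cox8b (1.245), Cry2 (1.36) and Srebf1 (1.40) also passed 1.2 after cyclic loess. The share within 1 kb of a start site remained above the 26.2% of all strong peaks under each of these scalings, at 48.0% with TMM, 42.7% with library totals and 38.8% with cyclic loess.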

How the data were processed

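PPARγ ChIP-seq of pooled iBAT was analysed at 8 time points with 1 library each. The authors mapped reads to mm10 with BWA 0.7.17, called peaks with MACS2 2.1.2, retained those significant in 6 or more libraries, and obtained read counts with HTSeq 1.99.2. The deposited values are these raw counts. They were divided by median-of-ratios size factors, as the rule for the stable peaks states. The peaks, gene lists and motifs were chosen with earlier results of these data known. Named are the 10 strongest, 10 least varying and 5 densest stable peaks, those at the limits, the stable peaks of the gene lists and the 5 genes with the most; Kit, Nrp2, Isca1, Bach1, H2-Ke6, Atpaf2 and the chromosomes were singled out after their values or sequences were seen.

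JTK-cycle was calculated on TMM-normalized counts in Python 3.11.15 (numpy 2.4.6, pandas 2.3.3), with periods of 21 and 24 h and Bonferroni correction over 15 combinations. The order of equal points in its reference curves was chosen by comparison with the JTK P values in the study's supplementary table, after the data had been seen. JTK-cycle called 7686 of all peaks here, fewer than the paper reports as oscillating. A 24-h cosine was fitted with edgeR 4.0.16 in R 4.3.3 (common dispersion 0.0116, 5 residual degrees of freedom). Its spread comes from the departures of single libraries from the curve, since time points have no replicates. Both were tested on simulated data. Peak centres were assigned to the nearest of 45756 curated RefSeq transcript starts of GRCm38, except for 7 peaks outside the chromosomes. Some peaks that the naming rule selects are not reported here. DR1 allowed 2 mismatches and the other motifs printed none. The alternatives were other scalings (TMM, upper quartile, library totals, cyclic loess in limma 3.58.1), ratio limits 0.05 lower and higher, mean counts of 500 and 2000, a cut on the coefficient of variation, DESeq2 1.42.0, other motif and start site settings and each library left out.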

Additional observations from a re-analysis of the deposited data

How the results depend on the processing

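The number of stable peaks was set mostly by the limits. It was 532 with the limit on the ratio lowered by 0.05, 2354 with it raised by 0.05, 2650 with a mean read count of at least 500 and 465 with at least 2000. It was 1368 with TMM, 1426 with upper-quartile factors, 1655 with library totals and 1881 with cyclic loess, of which 1343, 1329, 1066 and 846 were among the 1376. A cut on the coefficient of variation that keeps 1376 peaks shared 1217 with the rule. With each library left out in turn, the number ranged from 1498 to 1871, since a ratio over fewer libraries can only be lower apart from rescaling. JTK-cycle then called 64 to 120 of the 1376 stable peaks (120 without ZT12), beside 7396 to 10802 of all peaks. JTK-cycle called 113 with library totals, 103 with a period of 24 h only and 21 at a threshold of 0.01, beside 67. Over all peaks, the same settings called 8123, 9894 and 3079, beside 7686, so the call rate of the test moved too. With library totals, 2 stable peaks passed in the edgeR cosine, and 0 with DESeq2 and with edgeR's filter, which removed 0 peaks. The counts over all peaks were 8948, 9933 and 8842. The share with a DR1 was 0.509% with at most 1 mismatch and 41.9% over the whole peak. The share with a JTK-called peak of the same gene was 27.0% at a threshold of 0.01. The share within 1 kb of a start site and the median width stayed within 1.5 times under the alternatives tried, of which the start site shares by library totals, upper quartile and cyclic loess were added after the data had been seen. No paired analysis was possible because each time point has 1 library. Depth limits single values to an error of about 2.50% at the median count, and differences between mice or preparations are not measured.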
